A study of Mus musculus with 6 samples.

Results

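The mitochondrial ribosomal protein genes were taken as every gene symbol that starts with Mrpl or Mrps followed by a digit. The deposited table, which lists 23203 loci, held 76 of them, 47 named for the large subunit (Mrpl) and 29 named for the small subunit (Mrps). The symbol does not always give the place: Mrps18a and Mrps30 lie in the large subunit by structure, and Mrps36 is in neither subunit and belongs to the alpha-ketoglutarate dehydrogenase complex (Mrps36 was named after its values were seen). They were compared between mouse T helper 17 (Th17) cultures given 2-deoxyglucose (2DG), a glucose look-alike that blocks glycolysis, and cultures given the DMSO vehicle. The 2DG group had 3 libraries of total RNA from cultures with 250 µM 2DG, and the vehicle group had 3 libraries from cultures with DMSO. All 6 cultures started from naive CD4 T cells and received anti-CD3e bound to the plate at 10 µg/ml, anti-CD28 at 1 µg/ml, IL-6 at 20 ng/ml, TGFb1 at 2.5 ng/ml and IL-23 at 10 ng/ml over 48 h. The labels do not say which animals or cultures the libraries came from, so the p-values reflect variation among these 6 libraries only, and part of it may be technical. Levels are FPKM, fragments per kilobase of transcript relative to the library's mapped fragments. The number of fragments behind each library is not known.

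Mitochondria keep a ribosome of their own, which translates the few respiratory chain proteins encoded in mitochondrial DNA. Its rRNAs are made in the mitochondrion, whereas all of its proteins are encoded in the nucleus, made in the cytosol and imported. The small subunit holds the decoding centre and the large subunit the peptidyl transferase centre, and many of its proteins have no counterpart in bacteria. Activated T cells build up mitochondrial mass as they grow, and mitochondrial translation supplies the core of their respiratory chain.

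The libraries read as T cells: the 8 T cell markers summed to between 1113 and 1286 FPKM with 2DG and between 1118 and 1276 FPKM with vehicle. The 7 Th17 markers summed to between 2522 and 3257 FPKM with 2DG and between 1807 and 2114 FPKM with vehicle, and 3 of the 7 rose by limma (Il17a, Ccr6 and Rora). CD8 T cell markers summed to between 2.91 and 5.51 FPKM with 2DG and between 2.68 and 3.31 FPKM with vehicle. B cell, neutrophil and macrophage markers each summed to under 5 FPKM and erythroid markers were listed at 0. Of the NK cell list, Klrb1c was listed at 0, Ncr1 reached at most 0.0755 FPKM and Eomes at most 0.155 FPKM. The remaining NK cell marker, Klrd1, had 13.8, 17.8 and 8.50 FPKM with 2DG and 13.0, 35.3 and 32.0 FPKM with vehicle. The rRNA precursor Rn45s had 7186 FPKM in 2DG replicate 1 and 12874 FPKM in vehicle replicate 1, and was listed at 0 in the other 4 libraries. An exact 0 can be a failed estimate. Without small RNA genes, replicate 1 correlated with replicates 2 and 3 at 0.988 and 0.989 with 2DG and at 0.982 and 0.987 with vehicle. Replicates 2 and 3 correlated at 0.986 with 2DG and 0.988 with vehicle (Pearson's r of log2(FPKM + 1)).

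No member passed the test. On log2(FPKM + 1), limma with Benjamini-Hochberg adjustment over 10228 loci called 0 of the 75 members with a mean of at least 1 FPKM, against 2.72% of all tested loci (1.53% higher and 1.19% lower with 2DG). Of the members, 2 had an unadjusted p under 0.05 (Mrpl33 and Mrps12), against 17.9% of all tested loci, and the lowest adjusted p was 0.144. Under the 18 alternative settings no member was called either, between 0 and 7 had an unadjusted p under 0.05, and the lowest adjusted p was 0.103. The remaining member, Mrpl23, was under the filter, with 0.218, 0 and 0.830 FPKM with 2DG and 0.481, 1.04 and 0.387 FPKM with vehicle.

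The promoters of the members at the ends of the range of log2 differences are shown first, because mitochondrial ribosomal protein genes are described as targets of the activators NRF1, GABP (an ETS family factor) and YY1. Each line gives the 170 bases before the start that RefSeq lists (GRCm38.p6), 5′ to 3′ on the strand of the gene. Mrpl33 and Mrps18c had the lowest log2 fold changes, and Mrpl32 and Mrpl39 the highest among members with a RefSeq window. Capitals mark, on either strand, NRF1 cores (GCATGCGC), ETS cores (CCGGAAG), YY1 cores (AAGATGGC), E-boxes (CACGTG) and Sp1 boxes (GGGCGG).
Mrpl33 (chr5:31613781-31613950, plus strand): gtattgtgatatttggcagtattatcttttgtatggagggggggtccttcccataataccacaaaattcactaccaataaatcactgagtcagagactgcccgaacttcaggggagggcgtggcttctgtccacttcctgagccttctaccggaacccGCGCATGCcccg
Mrps18c (chr5:100798589-100798758, plus strand): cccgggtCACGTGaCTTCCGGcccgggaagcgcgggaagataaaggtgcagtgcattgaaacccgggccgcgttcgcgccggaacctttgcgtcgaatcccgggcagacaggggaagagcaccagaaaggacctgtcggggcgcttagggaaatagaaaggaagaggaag
Mrpl32 (chr13:14613038-14613207, minus strand): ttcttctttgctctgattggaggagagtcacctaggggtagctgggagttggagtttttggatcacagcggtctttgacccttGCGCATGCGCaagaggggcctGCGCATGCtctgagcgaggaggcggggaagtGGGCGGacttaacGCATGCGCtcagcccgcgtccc
Mrpl39 (chr16:84735245-84735414, minus strand): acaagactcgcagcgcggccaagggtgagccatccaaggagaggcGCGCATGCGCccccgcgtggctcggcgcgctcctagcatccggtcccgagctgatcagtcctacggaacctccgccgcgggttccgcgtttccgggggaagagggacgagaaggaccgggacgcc

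In these stretches the NRF1 letters stood in Mrpl33 as well as in Mrpl32 and Mrpl39, so that genes at both ends carried them. Mrpl32 and Mrpl39 each held the palindrome GCGCATGCGC, which contains the NRF1 core on both strands. Mrps18c carried an E-box and an ETS core close together. Over the RefSeq windows from 250 bases before to 50 bases after the start, which 67 members had, 36 held an NRF1, ETS or YY1 core. The YY1 core stood in 12 members (17.9%, against 5.94% of 7368 tested genes and 3.19% of all 27025 promoters). The ETS core stood in 24 (35.8%, against 22.8% of tested genes and 9.93% of all), and the NRF1 core in 8 (11.9%, against 6.88% of tested genes and 3.05% of all). The E-box stood in 5 (7.46%, against 12.7% of tested genes and 8.09% of all) and the Sp1 box in 33 (49.3%, against 71.6% of tested genes and 38.2% of all). With 2DG, the median log2 fold change was -0.07 for the members with a YY1 core and -0.07 for those without. It was -0.06 with an ETS core and -0.07 without, and 0.01 with an NRF1 core and -0.07 without. It was -0.10 with an E-box and -0.06 without, and -0.07 with an Sp1 box and -0.04 without. These matches are letters in a window, and no test was made of them.

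All members but Mrpl23 passed the filter of 1 FPKM. Their means over the 6 libraries ran from 3.75 FPKM for Mrps36 to 228 FPKM for Mrpl33, a 60.8-fold range. Whether low expression or a failed estimate lay behind the Mrpl23 values was not tested. The middle of the range was narrow, with quartiles at 26.8 and 68.5 FPKM. The median was 38.7 FPKM for Mrpl genes and 42.6 FPKM for Mrps genes. The order of the levels was nearly the same in every library: across the 75 members, Spearman's rho lay between 0.973 and 0.988 for pairs of a 2DG and a vehicle library and between 0.980 and 0.989 for pairs of 1 group (members are not independent replicates). The plot of levels shows this order with every library's value.

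**Figure D1:**
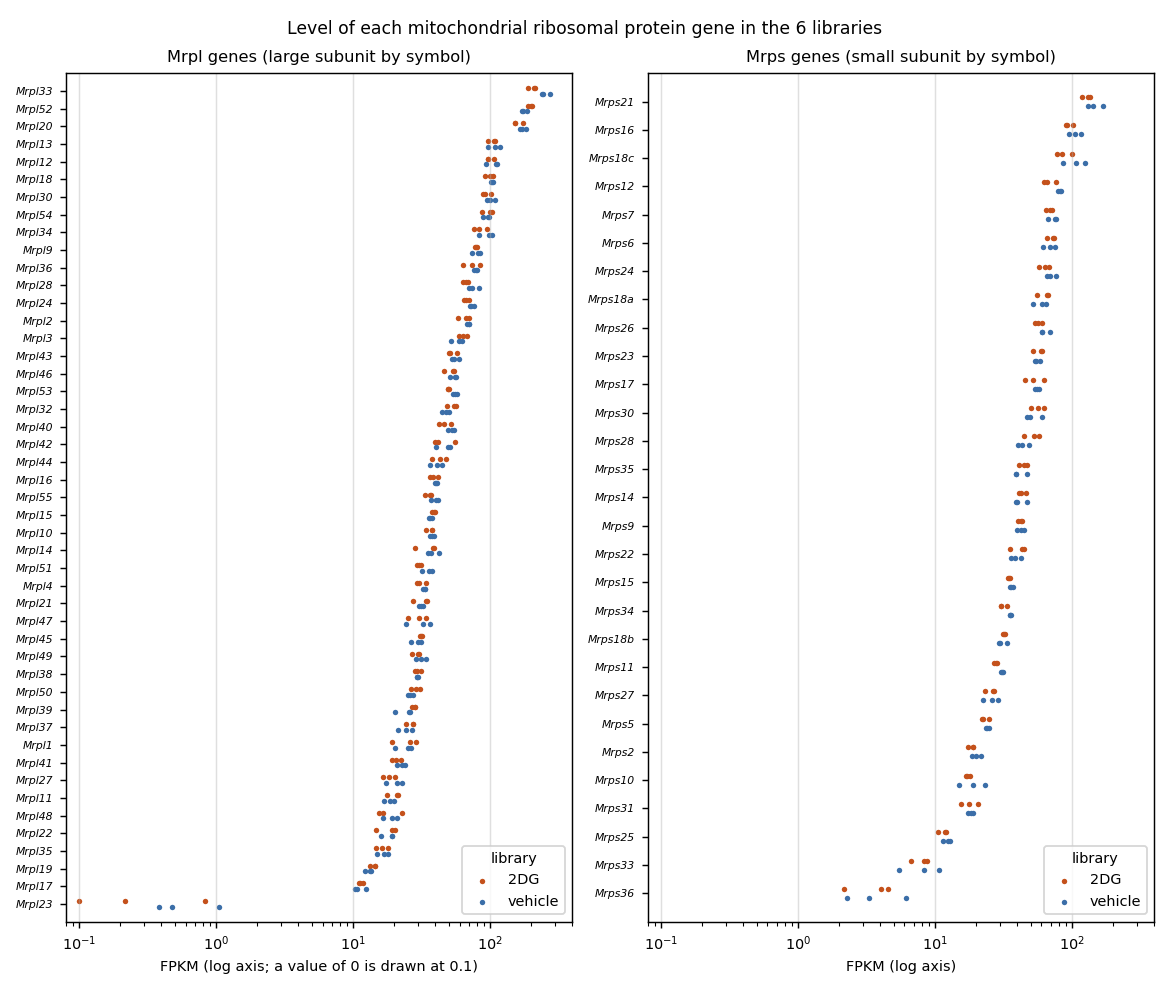
FPKM of each Mrpl gene (left) and Mrps gene (right) on a log axis, genes sorted by mean, with 1 point per 2DG library (orange, upper row of each gene) and vehicle library (blue, lower row). The points of a gene lie close together against the range between genes, except for Mrpl23 and Mrps36 at the low end; a value of 0 is drawn at 0.1.

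Mrpl33, a short protein of the large subunit with a bacterial counterpart, was the most abundant member and had the lowest log2 fold change. It had 208, 189 and 213 FPKM with 2DG and 276, 238 and 243 FPKM with vehicle. All 3 2DG libraries lay below all 3 vehicle libraries. The log2 fold change was -0.31 ± 0.09 (SE, n = 3 each; 95% interval -0.53 to -0.09), with an adjusted p of 0.144 by limma. By GENCODE the gene spans chr5:31596935-31664384 on the plus strand (mm10), and the RefSeq promoter shown above lies inside this span. The GENCODE span overlaps Rbks on the other strand, and overlap from the RefSeq start was not checked. Whether the counting used strand is not given in the sources used here, so reads from any exons the pair shares could not be told apart. By gene span, 23 members overlap a protein-coding gene on the other strand. The spans include introns, and overlap of exons was not checked for Mrpl33 or the others.

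The next members of the large subunit by level were Mrpl52 and Mrpl20, and they differed in direction. Mrpl52, a mitochondria-specific protein, had 191, 201 and 203 FPKM with 2DG and 172, 187 and 173 FPKM with vehicle, so that the groups did not overlap. Its log2 fold change was 0.16 ± 0.07 (SE), adjusted p 0.319 by limma. Mrpl20, whose bacterial counterpart binds rRNA early in assembly, had 151, 152 and 175 FPKM with 2DG and 165, 182 and 171 FPKM with vehicle, and these overlapped. Mrpl13 (log2 fold change -0.04, 104 ± 6.15 FPKM with 2DG and 107 ± 10.7 FPKM with vehicle, SD, n = 3 each) and Mrpl12 (-0.07, 100.1 ± 6.11 FPKM with 2DG and 106 ± 10.1 FPKM with vehicle) were close to 0. Mrpl12 forms the stalk that recruits translation factors and has been reported to bind mitochondrial RNA polymerase in human cells.

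Besides Mrpl33, the lowest log2 fold changes of the large subunit were those of Mrpl51, Mrpl28 and Mrpl40. Mrpl51 had 30.2, 29.3 and 31.5 FPKM with 2DG and 31.9, 38.0 and 35.6 FPKM with vehicle, and Mrpl28 had 63.7, 66.3 and 69.5 FPKM with 2DG and 70.1, 82.9 and 73.5 FPKM with vehicle. Both had groups that did not overlap, with adjusted p of 0.283 and 0.344 by limma. Mrpl40 had 46.2, 42.1 and 51.5 FPKM with 2DG and 49.4, 52.8 and 54.7 FPKM with vehicle, which overlapped. At the other end, Mrpl39 had 28.4, 27.0 and 28.5 FPKM with 2DG and 26.1, 20.2 and 25.8 FPKM with vehicle. Its groups did not overlap and its log2 fold change was 0.22 ± 0.11 (SE), adjusted p 0.361 by limma. Mrpl32, which is matured by the m-AAA protease before it is built into the ribosome, had 48.8, 56.9 and 54.2 FPKM with 2DG and 50.1, 47.5 and 44.7 FPKM with vehicle (log2 fold change 0.16). Mrpl50 had a log2 fold change of 0.13. Mrpl3, which reaches towards the peptidyl transferase centre, averaged 63.4 ± 3.92 FPKM with 2DG and 58.0 ± 5.54 FPKM with vehicle (SD, n = 3 each). Mrpl44, a protein with an RNase III fold, averaged 43.0 ± 4.95 FPKM with 2DG and 40.7 ± 3.79 FPKM with vehicle.

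In the small subunit, Mrps12 and Mrps18c were the lowest. Mrps12, which lines the decoding centre, had 62.7, 66.2 and 76.0 FPKM with 2DG and 83.4, 78.5 and 82.1 FPKM with vehicle. Each 2DG library was below each vehicle library, and the log2 fold change was -0.25 ± 0.09 (SE; 95% interval -0.46 to -0.04), with an adjusted p of 0.201 by limma. Mrps18c had 85.2, 77.9 and 99.6 FPKM with 2DG and 125, 107 and 86.0 FPKM with vehicle. These groups overlapped, and the log2 fold change of -0.26 had an interval from -0.62 to 0.10. Sars2, which starts 172 bases from Mrps12 on the opposite strand and encodes the mitochondrial seryl-tRNA synthetase, had a log2 fold change of 0.29 (adjusted p 0.134 by limma). In all, 32 members had an opposite-strand protein-coding start within 1000 bases. Of the 28 tested neighbours 0 were called, against 2.72% of all tested loci.

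The 3 Mrps18 genes encode related proteins that occupy different places: Mrps18b and Mrps18c belong to the small subunit and Mrps18a lies in the large subunit by structure. Mrps18b averaged 31.9 ± 0.473 FPKM with 2DG and 30.8 ± 2.22 FPKM with vehicle (SD, n = 3 each). Mrps18a averaged 62.7 ± 6.30 FPKM with 2DG and 59.3 ± 6.74 FPKM with vehicle. Neither showed a difference beyond its spread, and of the 3 Mrps18c was the most abundant. Mrps30, which also lies in the large subunit by structure, averaged 56.2 ± 6.05 FPKM with 2DG and 52.4 ± 7.21 FPKM with vehicle.

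Mrps21 and Mrps16, both with bacterial counterparts, were the most abundant Mrps genes. Mrps21 had 119, 130 and 136 FPKM with 2DG and 143, 168 and 131 FPKM with vehicle, and Mrps16 had 90.5, 92.0 and 102 FPKM with 2DG and 106, 116 and 95.03 FPKM with vehicle. Replicates 1 and 2 were lower with 2DG in both genes and replicate 3 was not, so the groups overlapped. Mrps34, in which human mutations cause a mitochondrial disease, had 30.2, 33.8 and 30.2 FPKM with 2DG and 35.9, 35.1 and 35.1 FPKM with vehicle. Its groups did not overlap, and its log2 fold change was -0.17 ± 0.08 (SE), adjusted p 0.301 by limma. The highest member of all was Mrps28, with 52.8, 44.4 and 57.6 FPKM with 2DG and 48.9, 43.1 and 40.4 FPKM with vehicle and a log2 fold change of 0.22 (adjusted p 0.399 by limma). Mrps35, Mrps22, Mrps6 and Mrps5 had log2 fold changes of 0.08, 0.07, 0.05 and -0.07. Mrps6 shares its locus in the table with Slc5a3, as Mrpl53 does with Ccdc142 (Mrpl53 was named after its values were seen), so their values may include the other gene.

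**Figure D2:**
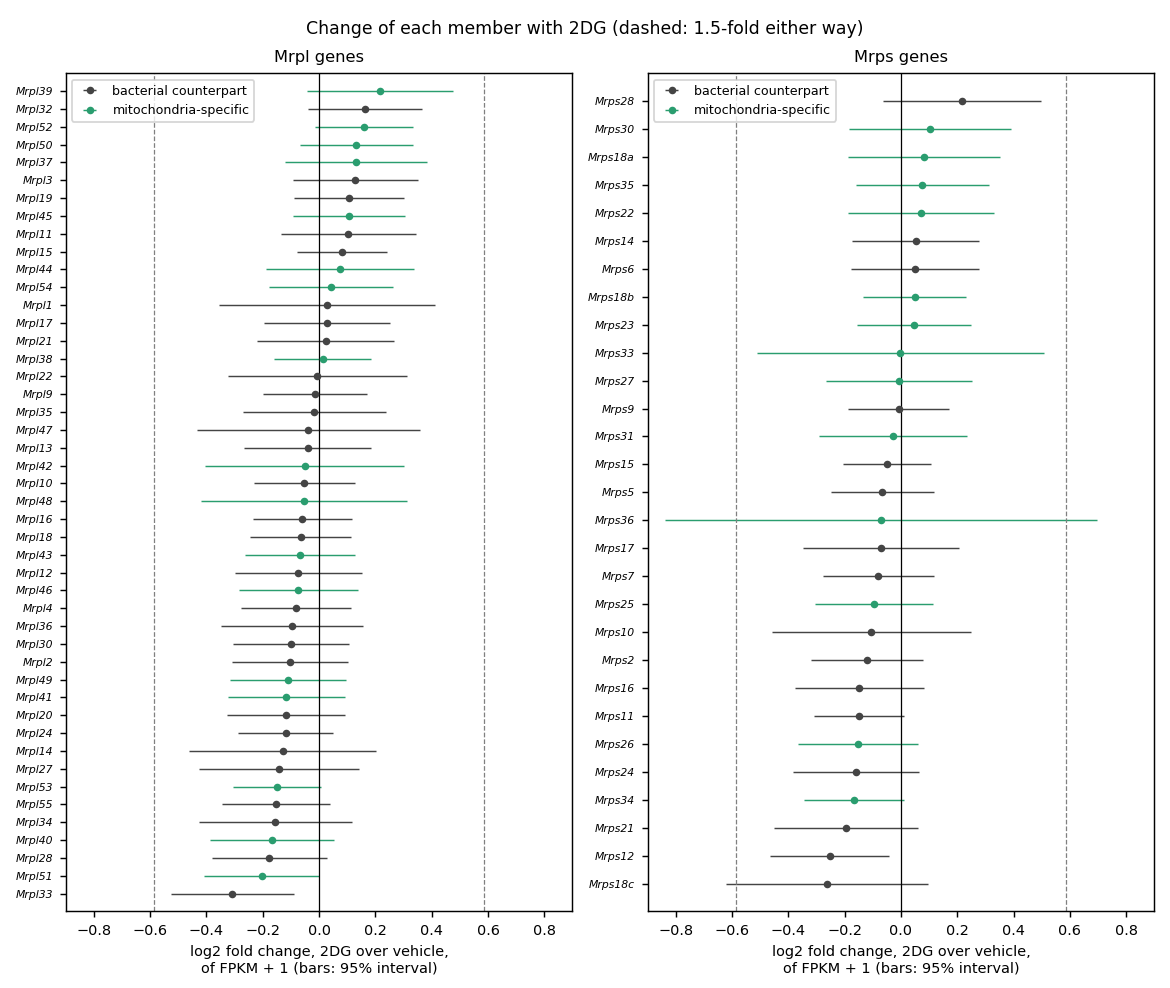
Log2 fold change of FPKM + 1, 2DG over vehicle, of each tested member with its 95% limma interval (n = 3 libraries each). Colours give the class in the mitoribosome nomenclature, bacterial counterpart or mitochondria-specific. Most intervals cross 0 and all but those of Mrps18c and Mrps36 lie within 1.5-fold (dashed lines).

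Across the 75 tested members the log2 fold changes ran from -0.31 to 0.22 with a median of -0.05, against -0.01 over all tested loci. Of them 50 (66.7%) were below 0, against 52.1% of all tested loci. The typical size was small: the median of the absolute log2 fold change was 0.10, against 0.13 over all loci. The intervals were also narrow, with 73 members inside 1.5-fold either way (97.3%, against 74.2% of all tested loci). The members' median level was higher too, 41.9 FPKM against 14.7 FPKM over all tested loci. This share was 100% of 7 mitoribosomal proteins with other symbols, 92.3% of 13 mitochondrial translation factors and 76% of 25 mitoribosome assembly and rRNA modification genes. The 36 members whose interval lay inside 1.25-fold compare with 25.2% of all tested loci. The groups did not overlap, with 2DG below vehicle, in 8 of 75 members, against 11.8% of all tested loci, and with 2DG above vehicle in 2 (Mrpl52 and Mrpl39), against 11.9%. The 8 were Mrpl33, Mrps12, Mrpl28, Mrpl51, Mrps34 and, named after their values were seen, Mrpl24, Mrpl53 and Mrps11. A p that misses the threshold does not show equal levels, and the intervals bound what these libraries can show.

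The 2 subunits did not separate. The median log2 fold change was -0.05 over the 46 tested Mrpl genes (30 below 0) and -0.07 over the 29 Mrps genes (20 below 0), and both medians stayed below 0 under each scaling alternative. The large subunit's median minus the small subunit's was 0.012. Between same-numbered libraries this difference was 0.054, 0.043 and -0.015 (SD 0.037), so it was within the spread. Without vehicle replicate 1 it was -0.032. With Mrps18a and Mrps30 counted in the large subunit, and Mrps36 left among the Mrps genes, it was 0.019.

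Library by library, the mean log2(FPKM + 1) of the Mrpl genes was 5.46, 5.42 and 5.56 with 2DG and 5.52, 5.49 and 5.52 with vehicle. That of the Mrps genes was 5.21, 5.21 and 5.34 with 2DG and 5.35, 5.31 and 5.24 with vehicle. In both subunits replicates 1 and 2 were lower with 2DG than with vehicle and 2DG replicate 3 was the highest or the next to highest of all, so the groups overlapped. Summed over the members, the level was 3798, 3747 and 4112 FPKM with 2DG and 4108, 4075 and 4002 FPKM with vehicle. In bulk samples, fewer cells of a type and less RNA per cell cannot be told apart. The plot of subunit means shows the libraries one by one.

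**Figure D3:**
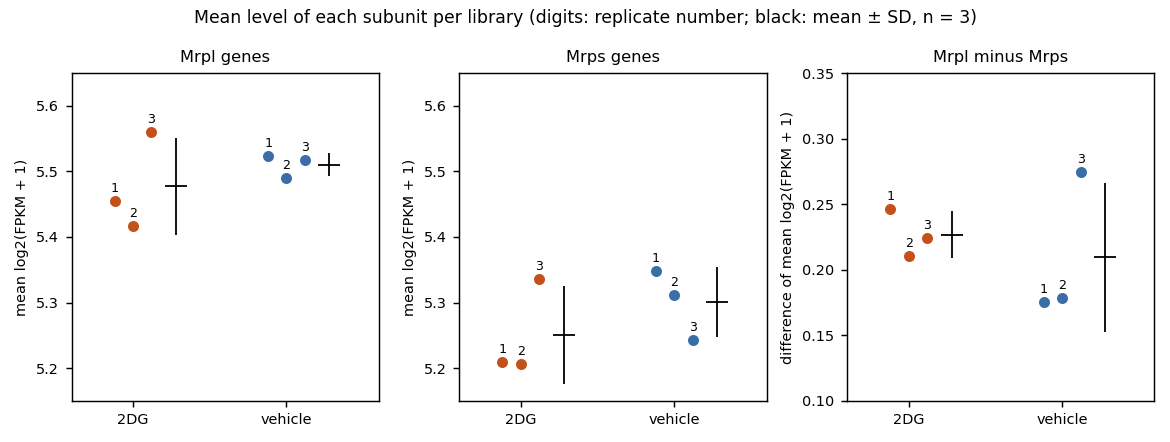
Mean log2(FPKM + 1) of the Mrpl genes (left) and the Mrps genes (middle) and the difference between them (right) in each library, 2DG left of vehicle, with replicate numbers and the mean ± SD over 3 libraries in black; the vertical axes do not start at 0. 2DG replicates 1 and 2 lie below the vehicle libraries in both subunits while replicate 3 does not, and the difference spans 0.210 to 0.246 with 2DG and 0.175 to 0.275 with vehicle.

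The direction differed by replicate number (1, 2 and 3 stand for 17, 42 and 43 in the sample titles, whose meaning the labels do not give). Between same-numbered libraries, the members' median log2 difference, 2DG minus vehicle, was -0.07 in number 1, -0.10 in number 2 and 0.05 in number 3. Members below 0 numbered 50, 51 and 26 of 75 in the 3 numbers, against 48.7%, 52.6% and 51.6% of all tested loci. Members below in all 3 numbers were 15 of 75, against 22% of all tested loci, and members above in all 3 were 9, against 20.4%. Both counts were no higher than the background share, and Mrpl33, Mrps12 and Mrps34 were among the 15 and Mrpl39, Mrpl52 and Mrps28 among the 9. Without the replicate 1 libraries, in which Rn45s was high, the median log2 fold change was -0.03 for Mrpl genes and -0.03 for Mrps genes, and 0 members were called.

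**Figure D4:**
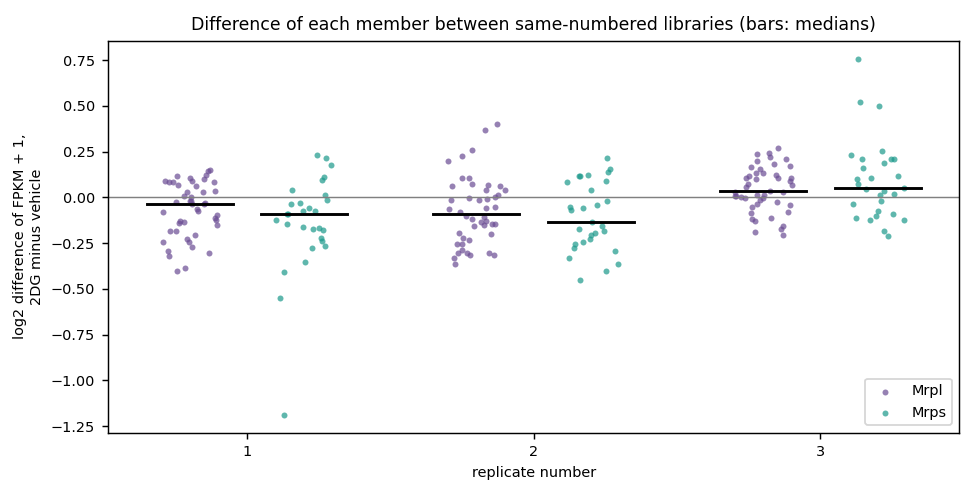
Log2 difference of FPKM + 1, 2DG minus vehicle, between same-numbered libraries for each of the 46 Mrpl (purple) and 29 Mrps (green) genes, 1 point per gene, with medians as bars; points are spread sideways for legibility. The medians lie below 0 in numbers 1 and 2 and above 0 in number 3 for both subunits.

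Members were grouped by class in the mitoribosome nomenclature, which counts Mrps18a and Mrps18b as mitochondria-specific and the related Mrps18c as having a bacterial counterpart. The 45 tested members with a bacterial counterpart had 34 below 0 and a median log2 fold change of -0.07. That median ran from -0.11 (without 2DG replicate 3) to -0.04 (without 2DG replicate 2) when 1 library was left out. The 30 mitochondria-specific members, Mrps36 among them, had 16 below 0 and a median of -0.0037, whose sign was not stable. It lay between -0.02 and 0.01 under the scaling alternatives, between 0.0016 and 0.03 in 5 of 6 fits that left out 1 library, at -0.04 without 2DG replicate 3 and at 0.03 with replicate numbers 2 and 3 only. By structural subunit the small-subunit proteins with a counterpart had the lowest median, -0.09 (13 of 16 below 0), and the large-subunit mitochondria-specific proteins the highest, 0.01 (9 of 19 below 0; -0.0042 to 0.03 under the scaling alternatives). In replicate number 3 the medians of the classes with and without a counterpart were 0.05 and 0.05, so the difference between them was not present there. Members are short transcripts, with a median length of 1047 bases against 2107 over tested loci with a transcript. Across the 75 members Pearson's r of the log2 fold change was 0.26 with log length, -0.22 with GC content and -0.23 with level. The r with log length was 0.40 over the Mrpl genes and 0.05 over the Mrps genes. Across 8820 tested loci, r with log length was 0.07, r with GC content -0.13 and r with level -0.03. These correlations are across genes, which share their libraries, and the part of length and GC content in the results was not tested.

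Other genes of the pathway were read from the same fit. Of all tested loci 2.72% were called and 17.9% had an unadjusted p under 0.05, both by limma. The 7 mitoribosomal proteins with other symbols had 0 called and a median log2 fold change of -0.04, with Ict1, which rescues stalled ribosomes, at 70.5 ± 3.90 FPKM with 2DG and 79.3 ± 6.12 FPKM with vehicle (SD, n = 3 each). Of 13 mitochondrial translation factors 0 were called by limma, 3 had an unadjusted p under 0.05 and the median log2 fold change was -0.08. Mrrf, the ribosome recycling factor, averaged 20.2 ± 2.70 FPKM with 2DG and 14.5 ± 1.61 FPKM with vehicle, adjusted p 0.117 by limma. Taco1, an activator of COX1 translation, averaged 13.3 ± 0.758 FPKM with 2DG and 16.6 ± 0.372 FPKM with vehicle, adjusted p 0.0959 by limma. Gfm2, which acts with Mrrf in recycling, averaged 12.4 ± 0.870 FPKM with 2DG and 15.2 ± 1.23 FPKM with vehicle, adjusted p 0.196 by limma.

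Among 25 genes of mitoribosome assembly and rRNA modification, 1 rose and 0 fell, against 1.53% and 1.19% of all tested loci. The median log2 fold change was 0.04, but it was -0.03 with replicate numbers 2 and 3 only and 0.0067 without vehicle replicate 2. The 1 was Ddx28, a DEAD-box helicase that assembles the large subunit in human cells. It had 34.4, 34.8 and 36.9 FPKM with 2DG and 24.8, 22.1 and 24.3 FPKM with vehicle. The groups were well apart, and the log2 fold change was 0.56 ± 0.08 (SE), adjusted p 0.0174 by limma. The call was lost in 5 of 6 fits that left out 1 library (adjusted p 0.0411 to 0.0714) and held in 9 of the 12 other alternatives. Noa1, a GTPase of small-subunit assembly, averaged 9.85 ± 0.3004 FPKM with 2DG and 7.67 ± 0.828 FPKM with vehicle, adjusted p 0.143 by limma.

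Of 16 genes of mitochondrial transcription and RNA processing 0 were called and the median log2 fold change was 0.01 (-0.01 to 0.02 under the scaling alternatives). Of 8 tested regulators of nuclear-encoded mitochondrial genes 0 were called by limma and 0 had an unadjusted p under 0.05. The 3 of smallest p, Gabpb1, Max and Gabpa, had log2 fold changes of 0.20, 0.21 and 0.15. Yy1 (0.16) and Pprc1 (0.01) were also above 0. On the other side of 0 were Esrra (-0.21), Nrf1 (-0.07) and Myc (-0.03). Yy1, Pprc1, Esrra, Nrf1 and Myc were named after their values were seen. Of the other 3 on that list, Ppargc1a was listed at 0 in every library, and Mycn and Ppargc1b were under the filter. The respiratory chain subunits encoded in the nucleus had a median of -0.09 over 77 genes (61 below 0). Of them 12 had an unadjusted p under 0.05, against 17.9% of all tested loci. Their groups did not overlap, with 2DG below vehicle, in 17, against 11.8% of all tested loci. The list had 1 gene that fell, Ndufb11 of complex I, with 66.5 ± 6.42 FPKM with 2DG and 109 ± 11.1 FPKM with vehicle (adjusted p 0.0194 by limma, lost in 5 of 6 fits that left out 1 library). The cytosolic ribosomal proteins had a median of 0.13 over 76 genes (17 below 0). Of them 0 were called by limma and 8 had an unadjusted p under 0.05. The 17 mitochondrial aminoacyl-tRNA synthetases had a median of 0.04 and 0 called, with 4 at an unadjusted p under 0.05. These counts compare with 2.72% called and 17.9% under 0.05 over all tested loci. Levels were uneven in both lists, from 1.33 to 7466 FPKM and from 2.85 to 4322 FPKM. The highest of the ribosomal list was the Rpl13a locus, which also names Snord33 and Mir5121. How reads were assigned in these lists was not tested. The signs of the mitoribosomal and respiratory chain medians by replicate number were alike, below 0 in numbers 1 and 2 and above 0 in number 3, whereas the cytosolic ribosomal protein median was above 0 in all 3. The respiratory chain median stayed below 0, and the cytosolic ribosomal protein and synthetase medians above 0, under each scaling alternative. No test was made of the differences between these lists.

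**Figure D5:**
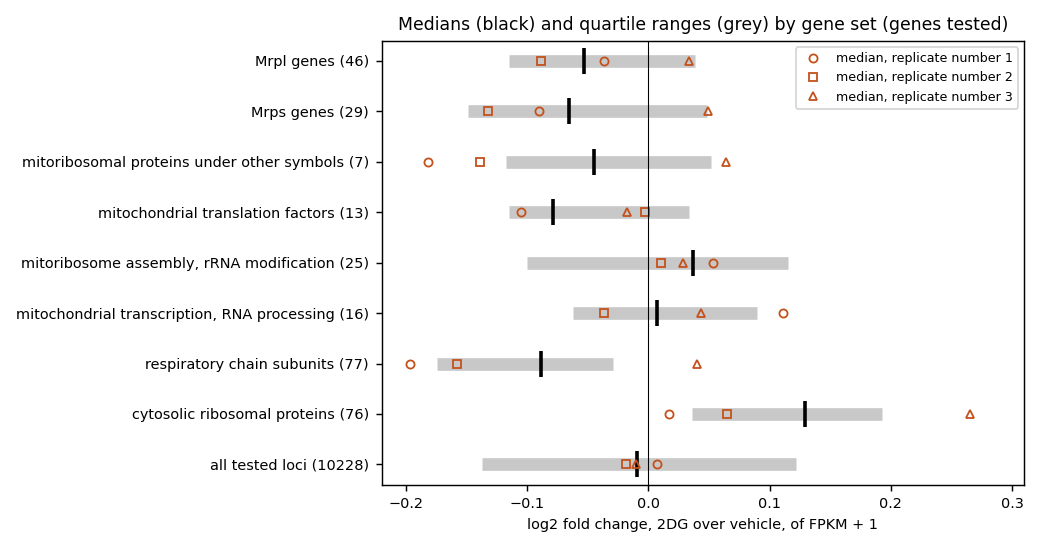
Median log2 fold change of FPKM + 1, 2DG over vehicle (black bar), with the quartile range over genes (grey) and the median in each replicate number (orange symbols) for the mitoribosomal genes, other mitochondrial and ribosomal lists, and all tested loci. The Mrpl and Mrps medians of -0.05 and -0.07 lie between those of the respiratory chain (-0.09) and the cytosolic ribosomal proteins (0.13).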

How the data were processed

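Total RNA from the 6 libraries was processed on mm10 with TopHat2 (2.1.0), Cufflinks (version 2.2.1.0), the Cuffnorm tool (2.2.1.1) and the Cuffdiff tool (2.2.1.3), per the submitters' processing notes. How genes were annotated and values scaled, and whether strand was used, is not given in the sources used here. One FPKM value per locus and library was deposited by the authors. FPKM are estimates, so an exact 0 can be a failed estimate, and whole fragments could not be recovered from the low values, so the depth is unknown.

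From these values, log2(FPKM + 1) was tested with limma 3.58.1 in R 4.3.3 (lmFit, eBayes with trend, two-sided, Benjamini-Hochberg adjustment, threshold 0.05), with group as the only term, for loci averaging 1 FPKM or more over all libraries. Fold changes on this scale understate the change of low genes. An exact permutation test of 3 against 3 libraries cannot go below 0.1. The code was tested on simulated data. No 2 libraries shared more than 0.479% identical values.

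The members and lists were chosen with earlier results of these data known. Named members are, per subunit, the 4 highest and 4 lowest log2 fold changes and the 3 highest levels, any under the filter and a set of well studied ones. Of each list, up to 3 genes of smallest p are named. Coordinates and lengths come from GENCODE M21 (GRCm38, which mm10 denotes), promoters from RefSeq (GRCm38.p6). Alternatives were another pseudocount (0.1), filters, scalings, loci and variance models, the replicate block, replicate numbers 2 and 3 only, and each library left out. Mitochondrially encoded RNAs were not analysed here.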

Additional observations from a re-analysis of the deposited data

How the results depend on the processing

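Under all 18 alternative settings 0 members were called and both subunit medians stayed below 0. Leaving out 1 library gave a range of -0.096 (without 2DG replicate 3) to -0.00047 (without 2DG replicate 2) for the large subunit and -0.11 to -0.027 for the small. The large minus small difference ranged from -0.032 (without vehicle replicate 1) to 0.039. The counts over all loci, 156 higher and 122 lower, were 100 and 65 with no filter, 95 and 62 with FPKM rescaled to an equal sum, 265 and 224 without small RNA genes, 247 and 199 with robust eBayes and 43 and 28 with replicate numbers 2 and 3 only. They ranged from 52 to 98 higher and from 25 to 69 lower when 1 library was left out. The cause was not tested.

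With a replicate block the counts over all loci were 57 higher and 44 lower and 0 members were called. Whether the numbers mark a shared source is not given. Same-numbered libraries' deviations from their group means correlated at -0.061, 0.394 and -0.206, and not every library correlated best with its own number. Deviations from a mean of 3 libraries constrain each other, so these values cannot show whether the libraries are paired. The main fit did not treat the libraries as pairs, and the block was kept as an alternative. The 2 number 1 libraries did share a high Rn45s level and a lower share of small RNA genes in the summed FPKM (72.4% with 2DG and 70.6% with vehicle, against 76.0% to 76.7% in the other 4). Under the block the adjusted p was 0.0543 for Ddx28 (log2 fold change 0.56) and 0.0598 for Ndufb11 (-0.71). Both also missed the threshold with an equal sum (0.225 and 0.0683) and with numbers 2 and 3 only (0.124 and 0.138).

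Signs turned for 4 named members near 0. Mrpl13 (main value -0.041) was 0.0081 with numbers 2 and 3 only and ranged from -0.12 to 0.027 when 1 library was left out. Over the same fits Mrpl44 ranged from -0.0028 to 0.16, Mrps18a from -0.0098 to 0.17 and Mrps6 from -0.022 to 0.12. The unknown depth and 3 libraries per group limit what can be seen: half-widths of the members' 95% intervals had a median of 0.22 on the log2 scale. Of the list medians, that of mitochondrial transcription and RNA processing (0.01) turned to -0.02 without 2DG replicate 1 and to -0.03 without 2DG replicate 3.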
